A study of Homo sapiens with 32 samples.

Results

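Polyadenylated RNA of irradiated MCF10A cells lacking XRCC4 was set against that of irradiated MCF10A cells lacking cGAS, over all genes. MCF10A is a non-tumorigenic human breast epithelial cell line. The comparison used 4 of the 32 libraries of the series: 2 of an XRCC4 KO line and 2 of a cGAS KO line, all collected 5 days after 10 Gy of irradiation. Both lines had been edited with lentiviral CRISPR-Cas9, carried the Cas9 and guide vectors, and were grown from single colonies, so each genotype was represented by 1 line as far as the labels show. Neither line was sequenced without irradiation, so a difference between them cannot be divided into a part that was there before irradiation and a part that followed it. Libraries of the same 14-library experiment gave reference levels: wild-type (WT) MCF10A untreated, WT with DMSO 3 and 5 days after 10 Gy, WT with a CDK1 inhibitor (CDK1i) 5 days after 10 Gy, and a STING KO line 5 days after 10 Gy, with 2 libraries each. A separate 12-library experiment held the XRCC4 KO genotype and WT cells 3 days after 10 Gy, also with 2 libraries each. Its other libraries entered the 3-day fit for spread and scaling only. They were p53 KO, XRCC4 KO with an ATR inhibitor, and an XRCC4 and p53 double KO without and with that inhibitor, all 3 days after 10 Gy.

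XRCC4 is the scaffold that binds DNA ligase IV and brings it to broken ends in classical non-homologous end joining, the main route by which human cells rejoin double-strand breaks. cGAS, encoded by MB21D1, binds double-stranded DNA in the cytosol and makes the messenger cGAMP, which activates STING (TMEM173) and, through TBK1 and IRF3, the transcription of interferons and interferon-stimulated genes. Cells that enter mitosis with unrepaired breaks form micronuclei whose DNA can be reached by cGAS, so end joining and sensing lie upstream and downstream of mitosis in the same response.

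The 4 libraries held 11403679 to 16595879 estimated counts. A gene was called when the adjusted p of edgeR's quasi-likelihood test was below 0.05. Of 13662 genes tested, 5080 were called (37.2%), of which 2618 were higher in XRCC4 KO (19.2% of all tested) and 2462 lower (18%). At a difference of 2-fold or more, 1001 genes were called (7.33%), of which 319 were higher (2.33%) and 682 lower (4.99%). The replicates were close: set against counting error, the spread within a pair gave a chi-square per gene of 2.95 for cGAS KO and 3.38 for XRCC4 KO, and of 21.5 to 45.1 for the other 5 groups of the experiment. When all 14 libraries were fitted with 1 shared spread, 379 of 15190 genes were called (2.5%), 201 higher (1.32%) and 178 lower (1.17%). On the deposited FPKM values, with limma and a pseudocount of 0.1, 24.2% of 1186 called genes were higher in XRCC4 KO, against 51.5% on the counts, and the median difference over all genes was -0.15 instead of 0.00. Of the 13662 genes, 287 were higher on FPKM and 899 lower. With 2 libraries a group the smallest two-sided permutation p is 0.333, and the labels do not say whether a pair came from separate cultures, so p-values measure the spread between these libraries, which may be technical. Basal epithelial markers summed to 19900 to 21800 CPM (counts scaled to a common library size) in the 4 libraries. The 5 immune and blood cell markers summed to 62.6 and 65.0 CPM in cGAS KO and to 38.1 and 39.9 CPM in XRCC4 KO, with a red blood cell gene at 0 in all 4. Of a longer list of 19 immune and blood cell genes 4 were tested, of which 2 were lower in XRCC4 KO and CSF1R, a macrophage receptor, was higher by 1.30 on the log2 scale; the mean log2 CPM of the 4 was 3.32 and 3.25 in cGAS KO and 3.14 and 3.16 in XRCC4 KO. Their part in the differences was not tested.

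The targeted genes were read first. MB21D1 (hg19 chromosome 6, 74078278 to 74161999) stood at 1.24 and 1.30 CPM in the cGAS KO libraries and at 11 and 10.7 CPM in the XRCC4 KO libraries, with 11.1 to 17.2 CPM in STING KO and irradiated WT at 5 days. Its log2 fold change, XRCC4 KO minus cGAS KO, was 3.09 ± 0.23 (SE; edgeR adjusted p = 2.88e-11), and it was also called in the 14-library fit (adjusted p = 0.000423). XRCC4 mRNA (chromosome 5, 82348665 to 82649606) did not go down with its label: it was 7.62 and 6.36 CPM in XRCC4 KO and 6.85 and 6.66 CPM in cGAS KO, a difference of 0.05 ± 0.18 (edgeR adjusted p = 0.854). The levels overlapped, and since an edit that shifts the reading frame can leave the mRNA in place, the level of XRCC4 mRNA checks nothing about the edit. TMEM173, encoding STING, was 59.3 and 69.9 CPM in XRCC4 KO and 63.4 and 65.9 CPM in cGAS KO, which did not pass the test (0.00 ± 0.08, edgeR adjusted p = 0.992).

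The genes of G2 and mitosis separated the lines most. In XRCC4 KO, 45 of 46 tested G2-M genes were lower and none was higher, where 18% of all genes were lower, and 38 of the 46 were lower by 2-fold or more, where 4.99% of all genes were. Their median log2 fold change was -2.58, and that of all genes was 0.00. BUB3, a spindle checkpoint protein, was the member not called, at -0.06. With 14 libraries fitted together 14 of the 46 were lower, against 1.17% of all genes.

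Many G2-M promoters carry a cell cycle homology region, TTTGAA, bound by the DREAM and MMB complexes that hold these genes down in resting cells and turn them on in G2. Among genes with 1 start site in the RefSeq promoter table (GRCh38.p14, 250 bases before to 50 after the start), TTTGAA was found on either strand in 24 of 32 G2-M promoters (75%) and in 656 of 6978 promoters of tested genes (9.4%). The 150 bases before the start of MKI67 (chr10:128126424-128126573, minus strand) and CENPA (chr2:26785906-26786055, plus strand) are shown because both genes were lower in the 14-library fit too. Capitals mark TTTGAA, at 47 and 29 bases before the start of MKI67 and at 18 bases before that of CENPA; a match is a stretch of letters and not evidence of binding in these cells.

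MKI67: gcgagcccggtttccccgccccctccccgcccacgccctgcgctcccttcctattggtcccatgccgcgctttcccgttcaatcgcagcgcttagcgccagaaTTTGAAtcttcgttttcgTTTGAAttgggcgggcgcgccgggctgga
CENPA: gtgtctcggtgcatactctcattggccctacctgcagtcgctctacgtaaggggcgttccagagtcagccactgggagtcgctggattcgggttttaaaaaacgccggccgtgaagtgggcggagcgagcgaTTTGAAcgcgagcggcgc

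MKI67 (hg19 chromosome 10, 129894923 to 129924649), the gene of the proliferation marker Ki-67, was 9.44 and 10.0 CPM in XRCC4 KO and 98.6 and 91.7 CPM in cGAS KO. The groups did not overlap, and the log2 fold change was -3.29 ± 0.09 (edgeR adjusted p = 4.77e-20). CENPA, the centromeric histone H3 variant loaded after mitosis, was 0.433 and 0.289 CPM in XRCC4 KO and 4.63 and 3.20 CPM in cGAS KO (-3.41 ± 0.42, edgeR adjusted p = 2.85e-07). DLGAP5, a spindle assembly factor, was 1.39 and 1.45 CPM against 13.7 and 16.0 CPM (-3.38 ± 0.21, edgeR adjusted p = 7.21e-13). These 3 genes all had XRCC4 KO as the low line in both libraries. CDC25C, the phosphatase that removes the inhibitory phosphates from CDK1 at mitotic entry, was 0.260 and 0.0963 CPM against 2.84 and 3.20 CPM, a difference of -3.97 ± 0.51 (edgeR adjusted p = 5.57e-07) that was -4.83 without XRCC4 KO replicate 1. CDK1, the kinase that drives mitotic entry, was 4.59 and 4.24 CPM against 30.2 and 28.2 CPM (-2.72 ± 0.14, edgeR adjusted p = 1.02e-14). CCNB1, encoding its partner cyclin B1, was 16.5 and 13.5 CPM against 50.9 and 49.8 CPM (-1.75 ± 0.10, edgeR adjusted p = 1.09e-13). CDK1 and CCNB1 were not called in the 14-library fit (adjusted p = 0.102 and 0.116), whereas MKI67, CENPA, DLGAP5 and CDC25C were (0.0161 to 0.0488).

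Genes of the G1-S transition and of DNA replication followed in the same direction with a smaller median. Of 51 tested, 44 were lower in XRCC4 KO and 1 was higher, 27 were lower by 2-fold or more, and the median log2 fold change was -1.05. Of all genes 18% were lower, and 4.99% by 2-fold or more. CLSPN, the adaptor claspin of the replication checkpoint, was 1.04 and 0.771 CPM in XRCC4 KO and 6.11 and 5.62 CPM in cGAS KO (-2.68 ± 0.30, edgeR adjusted p = 7.13e-08). ORC1, a subunit of the origin recognition complex, was 1.30 and 1.06 CPM against 7.84 and 6.23 CPM (-2.57 ± 0.27, edgeR adjusted p = 2.53e-08). The nucleotide synthesis genes TK1 and RRM2 had the same direction, at -2.57 ± 0.23 and -2.50 ± 0.11. CCNE1, encoding cyclin E1 of the G1-S transition, was the 1 member higher in XRCC4 KO, at 17.5 and 18 CPM against 13.3 and 11.5 CPM (0.50 ± 0.12, edgeR adjusted p = 0.00187); it was not called with DESeq2 (adjusted p = 0.0705) or on FPKM (0.109). With 14 libraries fitted together 1 of the 51 was lower and none was higher. On FPKM, 27 of the 51 were lower, where 899 of all 13662 genes were.

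**Figure D1:**
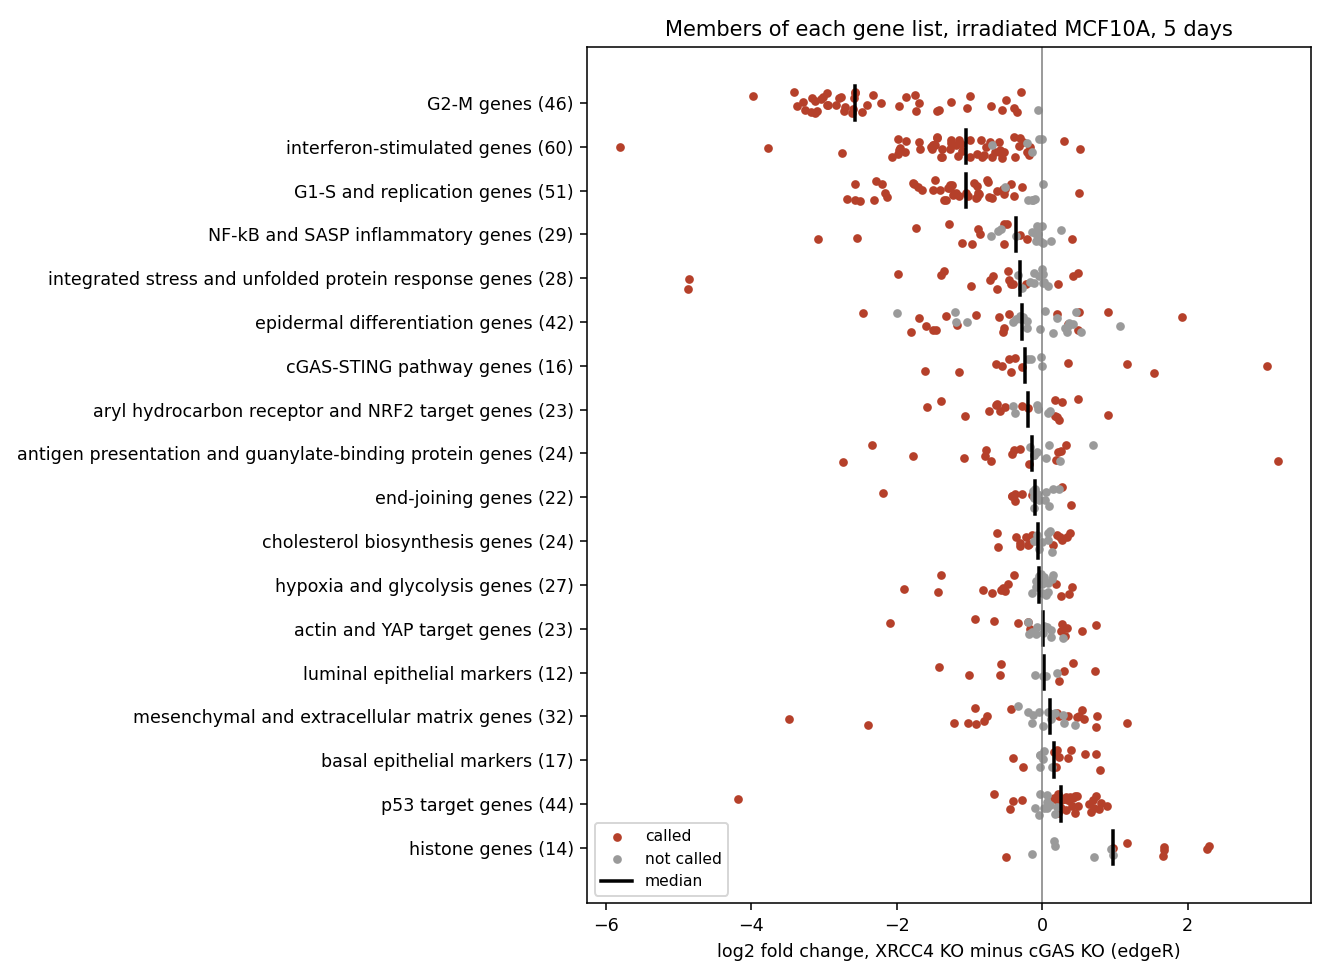
Log2 fold change of each tested member of 18 gene lists with at least 10 tested members, XRCC4 KO minus cGAS KO, 5 days after 10 Gy; the number tested is in brackets, red points were called (edgeR adjusted p below 0.05), grey points were not, and black bars are medians. G2-M genes have the lowest median (-2.58), followed by interferon-stimulated genes and G1-S genes (both -1.05), and histone genes have the highest (0.98).

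The level of the G2-M list in XRCC4 KO was the lowest of all 14 libraries. The mean log2 CPM of its 46 members was 2.58 and 2.51 in XRCC4 KO, 4.73 and 4.68 in cGAS KO, 4.86 and 4.55 in STING KO, and 4.25 and 4.68 in irradiated WT at 5 days. The untreated WT libraries were apart from each other, at 3.21 and 4.75. The G1-S list was likewise lowest in XRCC4 KO, at 2.88 and 2.83, with 3.03 to 5.50 in the other 12 libraries.

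Targets of p53, which stops the cycle after DNA damage, were mostly a little higher in XRCC4 KO. Of 44 tested, 29 were higher and 5 lower, where 19.2% of all genes were higher, the median log2 fold change was 0.25 and none was higher by 2-fold. CDKN1A (hg19 chromosome 6, 36644237 to 36655116), encoding the CDK inhibitor p21, was 1890 and 2000 CPM in XRCC4 KO and 1280 and 1210 CPM in cGAS KO (0.64 ± 0.06, edgeR adjusted p = 2.02e-09). It was 115 and 162 CPM in untreated WT, so it was high in both edited lines and higher in XRCC4 KO. PLK2, a stress-induced polo-like kinase, was 292 and 290 CPM against 153 and 162 CPM (0.89 ± 0.05, edgeR adjusted p = 5.05e-13). POLH, the polymerase that copies across ultraviolet lesions, was 97.2 and 95.2 CPM against 56.3 and 59.2 CPM (0.74 ± 0.07, edgeR adjusted p = 1.60e-09) and was also called in the 14-library fit (adjusted p = 0.0171), though not on FPKM (0.121). MDM2, the ubiquitin ligase that limits p53, did not pass the test: 671 and 677 CPM against 649 and 636 CPM, a difference of 0.07 ± 0.05 (edgeR adjusted p = 0.346).

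The 5 lower p53 targets included TNFRSF10C, a decoy receptor for the death ligand TRAIL, at 0.173 and 0.674 CPM in XRCC4 KO and 7.78 and 7.44 CPM in cGAS KO. Its difference was -4.18 ± 0.35 (edgeR adjusted p = 5.18e-10) and moved between -5.38 and -3.48 without XRCC4 KO replicate 2 or replicate 1. CYFIP2, a subunit of an actin-regulating complex, was -0.66 ± 0.08. BBC3, encoding the cell death protein PUMA, was -0.44 ± 0.13 (edgeR adjusted p = 0.00744), a call lost with DESeq2 (0.140), on FPKM (0.0652) and without XRCC4 KO replicate 2 (0.0865) or cGAS KO replicate 2 (0.0527). On FPKM 3 of the 44 were higher and 3 lower, where 287 and 899 of all 13662 genes were. The median of the 44 on FPKM was 0.07 where all genes had -0.15. The 14-library fit had 1 higher and 1 lower.

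Interferon-stimulated genes, which encode antiviral proteins and are a main transcriptional output of STING, were lower in XRCC4 KO than in the line without the sensor. Of 60 tested, 53 were lower and 2 were higher, where 18% of all genes were lower and 19.2% higher, and 30 were lower by 2-fold or more, with a median log2 fold change of -1.05. In the 14-library fit 1 of the 60 was lower, and the differences of the genes named here were not called there (adjusted p = 0.110 to 0.697).

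The core of the interferon-stimulated response element, which the factor ISGF3 binds, was searched on both strands as 2 GAAA runs with any 2 bases between them. It was found in 22 of 30 promoters of the list (73.3%) and in 193 of 6978 promoters of tested genes (2.77%). The 150 bases before the RefSeq start (GRCh38.p14) of IFIT1 (chr10:89392473-89392622, plus strand) and ISG15 (chr1:1013347-1013496, plus strand) are shown as examples from the list; capitals mark the match, read from the other strand in IFIT1, at 116 and 103 bases before its start and at 113 and 107 bases before that of ISG15, where the matches overlap.

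IFIT1: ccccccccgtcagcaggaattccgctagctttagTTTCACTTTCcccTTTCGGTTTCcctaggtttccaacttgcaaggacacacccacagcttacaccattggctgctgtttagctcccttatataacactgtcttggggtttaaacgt
ISG15: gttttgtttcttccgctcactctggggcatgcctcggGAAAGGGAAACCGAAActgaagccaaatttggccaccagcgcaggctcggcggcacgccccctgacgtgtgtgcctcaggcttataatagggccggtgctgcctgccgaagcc

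IFIT1, which binds viral RNA lacking a normal cap, was 41.2 and 38.4 CPM in XRCC4 KO and 166 and 144 CPM in cGAS KO. It was 0.804 and 0.606 CPM in untreated WT and 1140 and 278 CPM in irradiated WT at 5 days, so both edited lines were above the untreated cells and below the irradiated WT cells. Its log2 fold change was -1.96 ± 0.08 (edgeR adjusted p = 1.65e-15). Its hg19 interval in the count table (chromosome 10, 90973326 to 91174314) is shared with IFIT2, IFIT3 and LIPA. ISG15, a ubiquitin-like modifier, was 24.0 and 24.0 CPM in XRCC4 KO, 66.2 and 57.7 CPM in cGAS KO, 2.63 and 3.43 CPM in untreated WT and 566 and 151 CPM in irradiated WT at 5 days. Its log2 fold change was -1.38 ± 0.09 (edgeR adjusted p = 1.50e-12). RSAD2, encoding the antiviral enzyme viperin, was 6.93 and 5.59 CPM against 27.8 and 24.5 CPM (-2.06 ± 0.14, edgeR adjusted p = 2.72e-12). In each of these 3 genes the groups did not overlap and XRCC4 KO was the lower.

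Some members were lower in XRCC4 KO than even in untreated WT. MX1, a dynamin-like GTPase active against viruses, was 0.173 and 0.867 CPM in XRCC4 KO, 3.52 and 3.37 CPM in cGAS KO and 2.63 and 1.52 CPM in untreated WT, against 355 and 88.2 CPM in irradiated WT at 5 days. Its difference was -2.75 ± 0.44 (edgeR adjusted p = 1.87e-05), and -1.98 and -4.24 without XRCC4 KO replicates 1 and 2. CMPK2, a mitochondrial nucleotide kinase that lies beside RSAD2, had 1 count in the 2 XRCC4 KO libraries and 89 in the 2 cGAS KO libraries, a ratio of 70.3 (95% interval 12.3 to 2807, exact, counting error only), and was 0.658 and 1.01 CPM in untreated WT. LAMP3, a lysosomal membrane protein, had 2 and 38 counts, a ratio of 15.0 (95% interval 3.88 to 128), and was 1.46 and 1.11 CPM in untreated WT. On FPKM MX1 and LAMP3 were not called (adjusted p = 0.0605 and 0.0671). These low counts set the size of a difference only loosely.

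The exceptions were TRIM22 and LGALS3BP. TRIM22, an antiviral ubiquitin ligase that is also a p53 target, was 230 and 235 CPM in XRCC4 KO and 183 and 195 CPM in cGAS KO (0.30 ± 0.05, edgeR adjusted p = 8.09e-05). LGALS3BP, a secreted glycoprotein, was 189 and 219 CPM against 149 and 134 CPM (0.52 ± 0.07, edgeR adjusted p = 4e-05). On FPKM neither was called (adjusted p = 0.203 and 0.0648).

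The mean log2 CPM of the 60 interferon-stimulated genes placed the lines between untreated and irradiated WT. It was 4.51 in both XRCC4 KO libraries, 5.62 and 5.49 in cGAS KO, and 5.04 and 4.46 in STING KO, with 3.57 and 3.52 in untreated WT and 8.17 and 6.70 in irradiated WT at 5 days. The XRCC4 KO libraries thus lay within the range of the 2 STING KO libraries, and the cGAS KO libraries lay above it. Bulk RNA cannot tell fewer responding cells from less RNA in each cell.

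**Figure D2:**
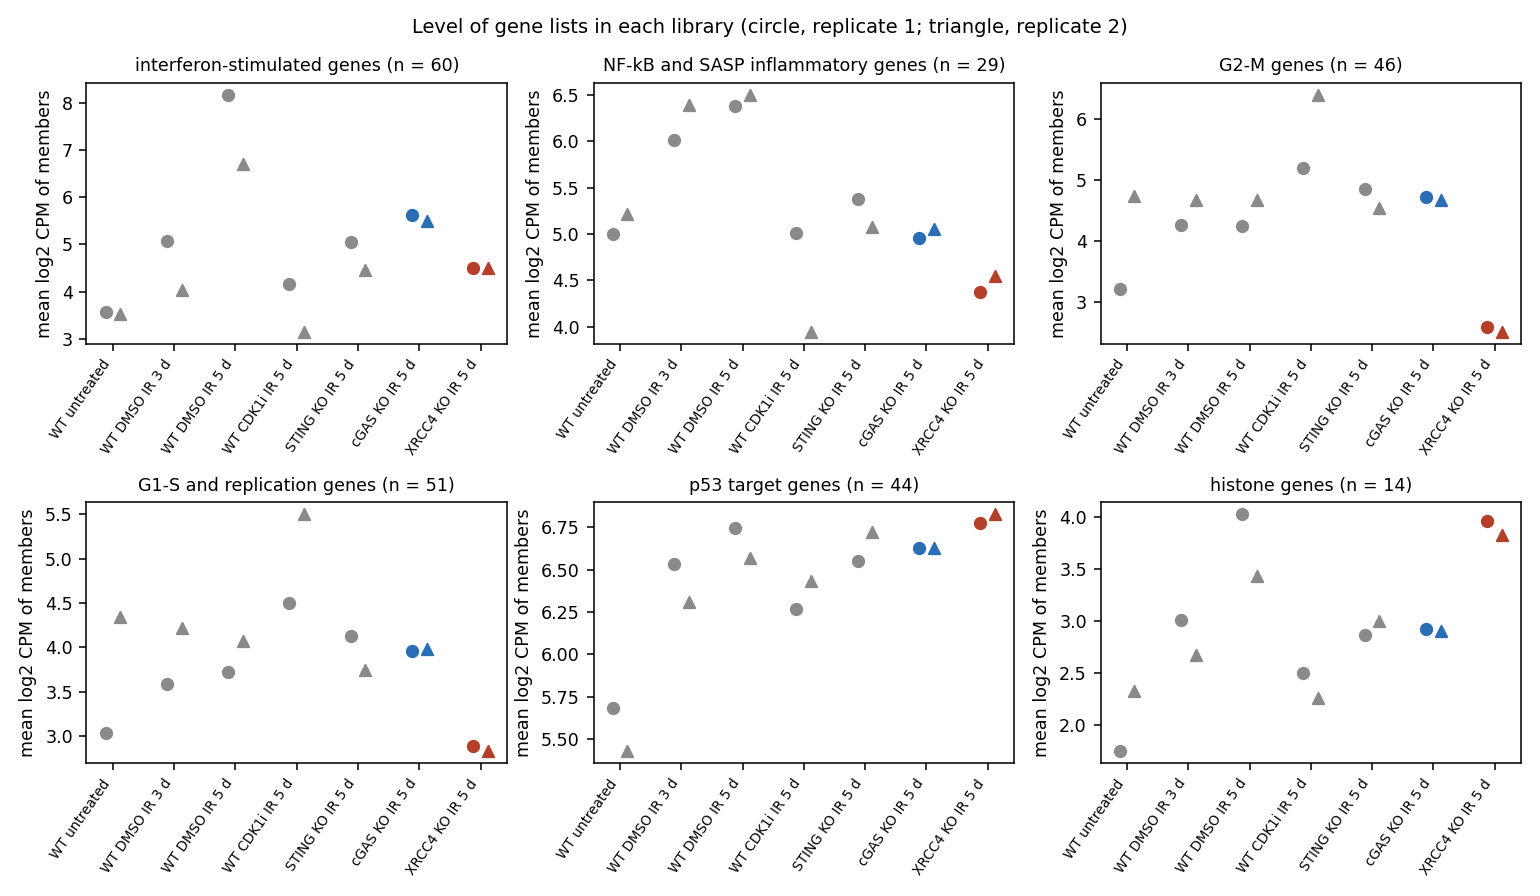
Mean log2 CPM (prior count 2) over the members of 6 gene lists in each of the 14 libraries of the experiment; circles are replicate 1, triangles replicate 2, blue is cGAS KO, red is XRCC4 KO and grey the other groups. XRCC4 KO is lowest for G2-M genes (2.58 and 2.51) and G1-S genes (2.88 and 2.83), and its histone gene level (3.96 and 3.83) is near that of irradiated WT at 5 days (4.02 and 3.43), above cGAS KO (2.93 and 2.90).

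Of interferon and T-cell chemokine genes, 2 of 10 passed the filter on low counts, CXCL10 and CXCL11, ligands of the T-cell receptor CXCR3 that share 1 interval of the count table. CXCL10 was 0.606 and 0.289 CPM in XRCC4 KO and 1.42 and 1.56 CPM in cGAS KO, against 13.5 and 2.72 CPM in irradiated WT at 5 days. Its call (-1.68 ± 0.49, edgeR adjusted p = 0.00867) was lost with DESeq2 (0.152), on FPKM (0.0521) and without XRCC4 KO replicate 2 (0.136), cGAS KO replicate 1 (0.0750) or cGAS KO replicate 2 (0.0900). CXCL11 had 3 counts in XRCC4 KO and 33 in cGAS KO, a ratio of 8.69 (95% interval 2.73 to 44.3), and its call was lost with DESeq2 (adjusted p = 0.0529) and without XRCC4 KO replicate 1 (0.0728). CCL5, another T-cell chemokine, did not pass the filter, at 0.193 to 0.988 CPM in the 4 libraries. At these depths the chemokines were near the limit of detection in both edited lines.

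Antigen presentation and guanylate-binding protein genes were divided, with 11 of 24 lower, 5 higher and a median of -0.14. Of all genes 18% were lower and 19.2% higher. The log2 fold changes of the 24 ran from -2.74 to 3.25. By 2-fold or more, 4 were lower and 1 higher, where 4.99% and 2.33% of all genes were. The members named next are all lower ones. NLRC5, the activator of MHC class I genes, was 3.29 and 2.22 CPM in XRCC4 KO and 15.4 and 12.7 CPM in cGAS KO (-2.34 ± 0.19, edgeR adjusted p = 3.36e-10) and was called in the 14-library fit (adjusted p = 0.0363). GBP1, a guanylate-binding protein, was 5.11 and 5.59 CPM against 10.9 and 11.6 CPM (-1.07 ± 0.17, edgeR adjusted p = 9.94e-06). CD274, encoding the checkpoint ligand PD-L1, was 0.693 and 0.674 CPM against 2.59 and 2.08 CPM (-1.77 ± 0.40, edgeR adjusted p = 0.000917; on FPKM 0.111). PSMB9, an immunoproteasome subunit, had 3 and 27 counts, a ratio of 7.11 (95% interval 2.19 to 36.6), and lost its call with DESeq2 (adjusted p = 0.101) and without XRCC4 KO replicate 2 (0.0643). The count of lower members was 7 with DESeq2, 7 without cGAS KO replicate 1, 6 on FPKM and 1 in the 14-library fit.

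Among 16 tested genes of the cGAS-STING pathway, 8 were lower in XRCC4 KO and 4 higher, where 18% and 19.2% of all genes were. The 4 include MB21D1, the gene edited in cGAS KO, which had the largest difference of the 16. Among the lower genes were 2 enzymes that limit nucleic acid sensing. SAMHD1, a dNTP hydrolase, was 15.8 and 13.3 CPM against 47.6 and 40.8 CPM (-1.61 ± 0.11, edgeR adjusted p = 8.45e-12). TREX1, the main cytosolic DNA exonuclease, was 2.34 and 2.12 CPM against 5.37 and 4.50 CPM (-1.15 ± 0.26, edgeR adjusted p = 0.000959). Both are also interferon-inducible. IFI16, a nuclear DNA sensor, was 143 and 140 CPM against 208 and 205 CPM (-0.55 ± 0.05, edgeR adjusted p = 6.57e-09). The transcription factor IRF3 was 110 and 109 CPM against 87.7 and 84.2 CPM (0.35 ± 0.06, edgeR adjusted p = 5.8e-05). ENPP1, the ectoenzyme that hydrolyses extracellular cGAMP, was 4.33 and 4.34 CPM against 1.79 and 2.08 CPM (1.17 ± 0.28, edgeR adjusted p = 0.00133). On FPKM, IRF3 and ENPP1 were not called (adjusted p = 0.207 and 0.196). MB21D1 was the only one of the 16 called in the 14-library fit.

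Of 22 end-joining genes tested, 7 were lower, 2 were higher and 13 were not called, where 37.2% of all genes were called, and the median was -0.10; leaving out cGAS KO replicate 2 or either XRCC4 KO library left 4 lower. LIG4, encoding the ligase that XRCC4 holds, was 59.4 and 56.0 CPM in XRCC4 KO and 43.2 and 44.5 CPM in cGAS KO (0.40 ± 0.08, edgeR adjusted p = 0.000133; on FPKM 0.295). POLQ, the polymerase of the alternative theta-mediated route, was 2.95 and 2.02 CPM against 11.8 and 11.2 CPM (-2.19 ± 0.20, edgeR adjusted p = 2.33e-09; on FPKM 0.105). POLQ was the 1 member with a 2-fold difference.

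Inflammatory genes driven by NF-kB and secreted by senescent cells were more often lower than higher in XRCC4 KO. Of 29 tested, 13 were lower, 1 was higher and 15 were not called, where 18% of all genes were lower and 19.2% higher, and the median was -0.36. CSF3, encoding the neutrophil growth factor G-CSF, was 2.43 and 3.28 CPM in XRCC4 KO and 21.4 and 27.1 CPM in cGAS KO (-3.08 ± 0.17, edgeR adjusted p = 6.05e-13). Both edited lines were below every WT library named here, which held 126 and 299 CPM after irradiation for 5 days and 136 and 169 CPM untreated. CCL20, a chemokine for dendritic cells and Th17 cells, was 1.39 and 1.25 CPM against 4.32 and 4.58 CPM (-1.74 ± 0.30, edgeR adjusted p = 3.56e-05). BIRC3, an inhibitor of apoptosis in NF-kB signalling, was 94.5 and 95.3 CPM against 233 and 228 CPM (-1.28 ± 0.06, edgeR adjusted p = 6.83e-16). CCL20 and BIRC3 were the 2 members called in the 14-library fit (adjusted p = 0.0490 and 0.0401). CXCL8, the neutrophil chemokine interleukin-8, was 6.32 and 6.65 CPM against 13 and 15 CPM (-1.10 ± 0.15, edgeR adjusted p = 1.6e-06), and both lines were under the 91.4 and 154 CPM of irradiated WT at 5 days. The interleukin-1 genes did not pass the test: IL1A differed by 0.12 ± 0.06 (edgeR adjusted p = 0.125; 0.0349 without cGAS KO replicate 2) and IL1B by -0.05 ± 0.08 (edgeR adjusted p = 0.664). IL6 had 0 counts in both XRCC4 KO libraries and at most 0.259 CPM in cGAS KO and was not tested.

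Histone genes went the other way from the replication genes. These are histone genes seen in polyadenylated RNA; most replication-dependent histone mRNA ends in a stem-loop without a poly-A tail, and polyadenylated forms rise in cells that leave the cycle or differentiate. Of 14 tested, 7 were higher in XRCC4 KO and 1 lower, 6 were higher by 2-fold or more, and the median was 0.98, where 2.33% of all genes were higher by 2-fold. The mean log2 CPM of the 14 was 3.96 and 3.83 in XRCC4 KO and 2.93 and 2.90 in cGAS KO. It was 4.02 and 3.43 in irradiated WT at 5 days and 2.86 and 3.00 in STING KO, so the XRCC4 KO level was not particular to that line. Whether cells leaving the cycle had a part was not tested. HIST1H1C (hg19 chromosome 6, 26056015 to 26056656), a linker histone, was 63.1 and 57.2 CPM in XRCC4 KO and 12.6 and 12.4 CPM in cGAS KO. Its difference was 2.27 ± 0.09 (edgeR adjusted p = 2.36e-16), and the 2 groups did not overlap. HIST1H2BC was 15.7 and 13.5 CPM against 2.47 and 3.63 CPM (2.29 ± 0.19, edgeR adjusted p = 2.91e-10). HIST1H2BD was 52.7 and 50.5 CPM against 16.1 and 16.1 CPM (1.68 ± 0.09, edgeR adjusted p = 4.24e-14). HIST1H4H, an H4 gene, was 18.3 and 15.9 CPM against 5.50 and 5.19 CPM (1.67 ± 0.15, edgeR adjusted p = 9.19e-10). HIST1H1C, HIST1H2BC and HIST1H2BD were among 4 of the 14 that were higher in the 14-library fit (adjusted p = 0.00964 to 0.0468). H1FX, a replication-independent linker histone, was the lower member, at 10.7 and 11.4 CPM against 14.5 and 16.9 CPM (-0.50 ± 0.13, edgeR adjusted p = 0.00370), and lost its call without cGAS KO replicate 2 (0.0704), with DESeq2 (0.0945) and on FPKM (0.0623). Histone genes are near-identical copies, so reads could be divided among them in counting.

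Of the abundant basal keratins, KRT5 and KRT14 did not pass the test, with 8970 and 8520 CPM of KRT5 in XRCC4 KO and 9140 and 8650 CPM in cGAS KO (-0.02 ± 0.06, edgeR adjusted p = 0.795), and a difference of 0.01 ± 0.06 for KRT14 (edgeR adjusted p = 0.923). KRT17 was 3820 and 3580 CPM in XRCC4 KO and 3090 and 3200 CPM in cGAS KO (0.23, edgeR adjusted p = 0.00341). Of 17 basal markers 9 were higher and 2 lower, where 19.2% and 18% of all genes were, with a median of 0.16. On FPKM 3 were higher and 1 lower, where 287 and 899 of all 13662 genes were. Among the lower was TP63, at 75.5 and 70.3 CPM in XRCC4 KO and 99.9 and 91.8 CPM in cGAS KO (-0.40, edgeR adjusted p = 4.18e-05). KRT15, a basal progenitor keratin, was 1230 and 1230 CPM against 707 and 719 CPM (0.79 ± 0.06, edgeR adjusted p = 1.09e-11). COL17A1, a hemidesmosome collagen, was 3770 and 3930 CPM against 2310 and 2290 CPM (0.74 ± 0.06, edgeR adjusted p = 1.39e-10), and was the 1 basal marker called in the 14-library fit (adjusted p = 0.0488). Luminal markers were divided, 4 higher and 4 lower of 12, with a median of 0.03 (-0.20 without XRCC4 KO replicate 2). EPCAM, an epithelial adhesion molecule, was 3.03 and 2.50 CPM against 7.35 and 7.52 CPM (-1.42 ± 0.22, edgeR adjusted p = 9.2e-06), and KRT8, a luminal keratin, was 54.8 and 46.9 CPM against 107 and 97.8 CPM (-1.01 ± 0.08, edgeR adjusted p = 1.53e-10). MUC1, an apical mucin, went the other way, at 400 and 446 CPM against 251 and 262 CPM (0.72 ± 0.06, edgeR adjusted p = 2.12e-10).

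Mesenchymal and extracellular matrix genes were also divided, 10 higher and 9 lower of 32, where 19.2% and 18% of all genes were. The median was 0.10, but 0.00 without cGAS KO replicate 1 and -0.01 without XRCC4 KO replicate 1. On FPKM none was higher and 5 were lower, where 287 and 899 of all 13662 genes were. LOX, which crosslinks collagen, was 3.03 and 3.28 CPM against 15.5 and 17.9 CPM (-2.40 ± 0.17, edgeR adjusted p = 1.09e-11). TNC, encoding tenascin-C, was -1.22 ± 0.08 and VIM, encoding vimentin, -0.80 ± 0.06. CDH2, encoding N-cadherin, was 4.59 and 4.53 CPM against 1.98 and 2.08 CPM (1.17 ± 0.27, edgeR adjusted p = 0.00103; on FPKM 0.125). Epidermal differentiation genes were 13 lower and 6 higher of 42, where 18% and 19.2% of all genes were, and 20 lower without cGAS KO replicate 1. None of the 42 was called in the 14-library fit. The median was -0.28, but 0.00 without cGAS KO replicate 2 and -0.53 without cGAS KO replicate 1. Members ran from -2.46 to 1.93, with 8 lower and 1 higher by 2-fold or more, where 4.99% and 2.33% of all genes were. Among the lower ones KRT10, a keratin of differentiating layers, was 26 and 22.9 CPM against 70.0 and 89.4 CPM (-1.69 ± 0.14, edgeR adjusted p = 3.83e-05).

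Amino acid synthesis and stress genes held some of the largest differences. Of 28 genes of the integrated stress and unfolded protein responses, 14 were lower in XRCC4 KO and 3 higher, where 18% and 19.2% of all genes were, with a median of -0.31 (-0.18 without cGAS KO replicate 1). With 14 libraries fitted together none of the 28 was called. PHGDH, the first enzyme of serine synthesis, was 0.173 and 0.289 CPM in XRCC4 KO, 7.53 and 6.31 CPM in cGAS KO and 206 and 125 CPM in untreated WT (-4.87 ± 0.39, edgeR adjusted p = 9.82e-11). CBS, the first enzyme of transsulfuration, had 1 count in XRCC4 KO and 45 in cGAS KO, a ratio of 35.5 (95% interval 6.06 to 1435). CHAC1, which degrades glutathione, was 0.953 and 1.93 CPM against 6.30 and 4.84 CPM (-1.98 ± 0.30, edgeR adjusted p = 1.07e-05; on FPKM 0.0646). The transcription factor ATF5 was higher, at 98.5 and 85.8 CPM against 64.7 and 66.0 CPM (0.50 ± 0.07, edgeR adjusted p = 3.79e-06; on FPKM 0.115). PHGDH and CHAC1 were not called in the 14-library fit (adjusted p = 0.249 and 0.412).

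The genes with the largest differences of all were mostly outside these lists and were present in 1 line and near 0 in the other. TMPRSS15 (hg19 chromosome 21, 19641433 to 19858917), encoding enteropeptidase, which activates trypsinogen in the gut, was 217 and 229 CPM in XRCC4 KO and had 1 count in the 2 cGAS KO libraries. It was 0 in both STING KO libraries and 2.43 to 5.34 CPM in untreated and 5-day irradiated WT, so XRCC4 KO was the line that stood apart. The ratio to cGAS KO was 6188 (95% interval 1110 to 244445, exact, counting error only). KRT222, a keratin-like gene, had 67 counts against 1 in cGAS KO, a ratio of 84.8 (95% interval 14.7 to 3400). PRSS21, a membrane serine protease of the testis, was 14.3 and 12.7 CPM in XRCC4 KO, 1.48 and 0.519 CPM in cGAS KO and 6.51 to 12.4 CPM in the other libraries plotted, so cGAS KO lay far below these libraries and XRCC4 KO just above them; its difference was 3.65 ± 0.26 (edgeR adjusted p = 3.32e-10), and 4.67 without cGAS KO replicate 1. MOCS1, an enzyme of molybdenum cofactor synthesis, had 47 counts against 3 (ratio 19.8, 95% interval 6.39 to 99.6; on FPKM adjusted p = 0.107), with 7.35 to 8.76 CPM in the same WT libraries, above both edited lines.

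In the lower direction PNMA8A had 1 count in XRCC4 KO and 449 in cGAS KO, a ratio of 355 (95% interval 63.3 to 14038), and stood at 3.53 to 17.2 CPM in the STING KO, untreated WT and 5-day irradiated WT libraries. ZNF329, a zinc finger gene, had 0 counts in both XRCC4 KO libraries and was 2.66 and 2.51 CPM in cGAS KO, at least 19-fold higher when XRCC4 KO is set at a floor of 3 counts over the group. STAT5A, a transcription factor of cytokine signalling, had 2 counts in XRCC4 KO and 81 in cGAS KO, a ratio of 32.0 (95% interval 8.57 to 269). ADD2, a subunit of the membrane skeleton protein adducin, had 1 and 177 counts, a ratio of 140 (95% interval 24.8 to 5552), but was also 0 in STING KO. NOTCH3, a Notch receptor, was 1.13 and 0.963 CPM in XRCC4 KO, 50.1 and 54.9 CPM in cGAS KO and 2.27 to 22.1 CPM in STING KO, untreated WT and 5-day irradiated WT (-5.63 ± 0.16, edgeR adjusted p = 4.77e-20; 14-library fit 0.0907), so both edited lines lay outside the other libraries. A difference of this kind between 2 lines each grown from a single colony cannot be told apart from a difference between the colonies.

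**Figure D3:**
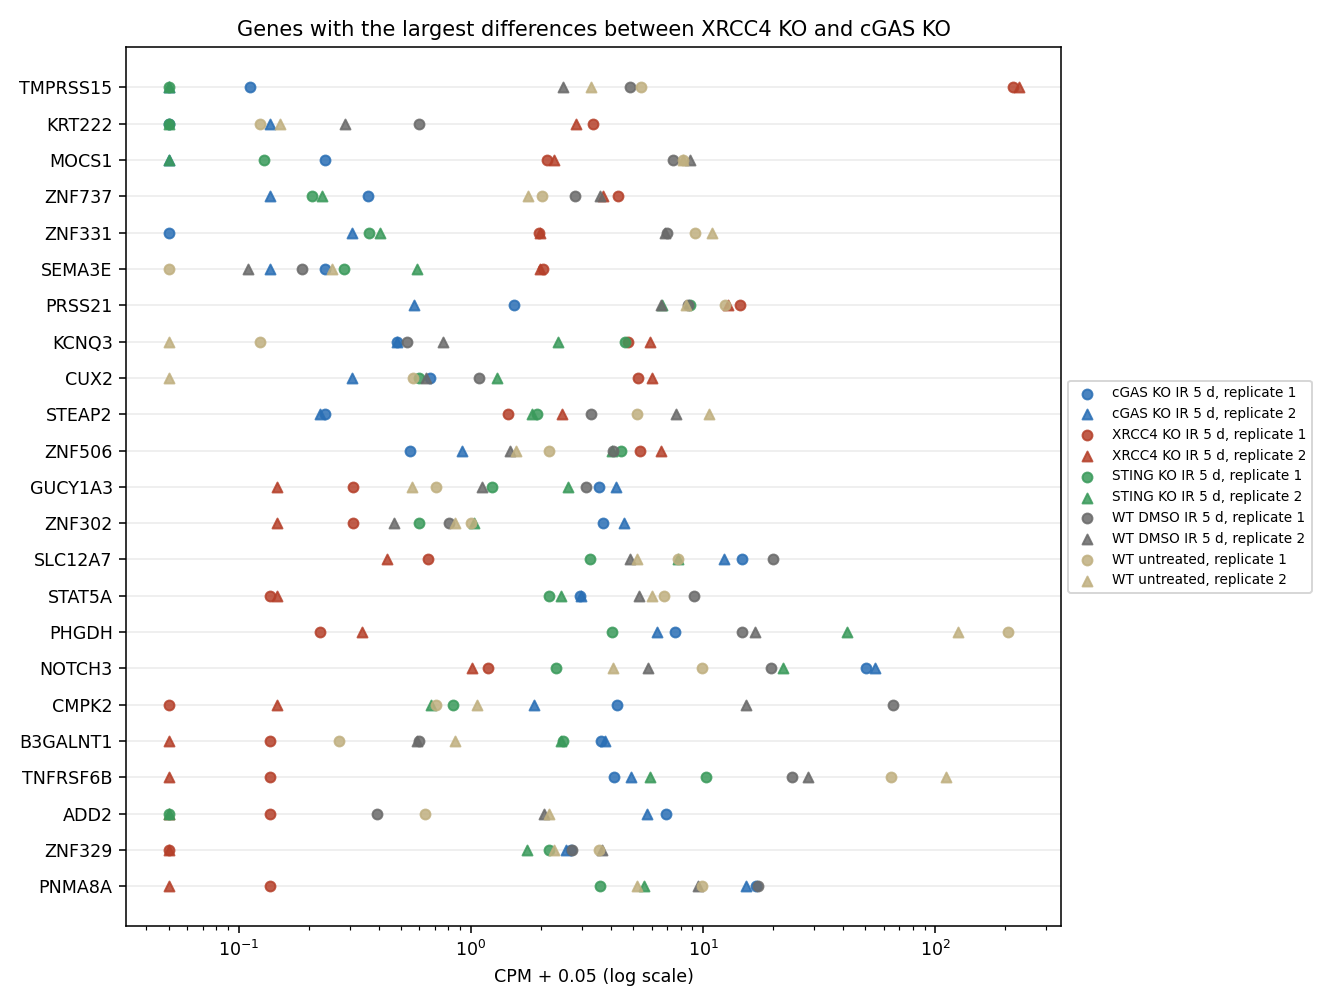
CPM + 0.05 (log scale) of the named genes with the largest differences between XRCC4 KO (red) and cGAS KO (blue) in 10 libraries of the experiment; circles are replicate 1, triangles replicate 2, green is STING KO, dark grey is irradiated WT at 5 days and tan is untreated WT. TMPRSS15 is high in XRCC4 KO alone (217 and 229 CPM), and PNMA8A, ZNF329, PHGDH and STAT5A are near 0 in XRCC4 KO alone among the 5 groups plotted.

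To see which line departed from the others, the 1001 genes with a 2-fold difference were placed by the mean log2 CPM of another group, counting those nearer to cGAS KO than to XRCC4 KO. Irradiated WT at 5 days was nearer to cGAS KO for 774 genes (77.3%), STING KO for 780 (77.9%) and untreated WT for 699 (69.8%; 60.9% without untreated replicate 2). For the 682 genes lower in XRCC4 KO, irradiated WT at 5 days was nearer to cGAS KO for 87.4%, STING KO for 82% and untreated WT for 67.7%. For the 319 higher genes the shares were 55.8% by irradiated WT, 69.3% by STING KO and 74.3% by untreated WT. The share was larger for the lower genes by irradiated WT and STING KO and larger for the higher genes by untreated WT. These shares have no test: the 1001 genes were chosen on the same 4 libraries.

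The XRCC4 KO genotype was also compared with WT 3 days after 10 Gy, in libraries that none of the values above used. There 9398 of 16632 genes were called (56.5%), 4778 higher (28.7%) and 4620 lower (27.8%). Of the genes called at 5 days and tested in both, 2607 were called in the same direction at 3 days, which is 51.5% of 5062 and 31% of the 8402 called at 3 days, and 1010 were called in the opposite direction (20% and 12%). With a 2-fold difference at 5 days, 559 of 983 had the same direction (56.9%) and 136 the opposite. The time and the line on the other side of the comparison both differ, so the values are set side by side without a test between them.

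Of all genes tested at 3 days, 27.8% were lower in XRCC4 KO and 28.7% higher, more than at 5 days. Interferon-stimulated genes were lower in XRCC4 KO in both: at 3 days 55 of 60 were lower than in WT and 3 higher, with a median of -1.40. IFIT1 was 2.17 and 3.10 CPM in XRCC4 KO and 12.8 and 19.5 CPM in WT (-2.65 ± 0.47, edgeR adjusted p = 0.00287). The p53 targets were also in the same direction, 33 of 44 higher and 2 lower at 3 days with a median of 0.37, and CDKN1A was 1880 and 1910 CPM against 1330 and 1390 CPM (0.48 ± 0.04, edgeR adjusted p = 1.05e-12). G2-M genes were 37 of 46 lower and 3 higher at 3 days, with a median of -0.49 where it was -2.58 against cGAS KO at 5 days. MKI67 was 56.6 and 56.1 CPM in XRCC4 KO against 88.9 and 91.9 CPM in WT at 3 days (-0.68 ± 0.05, edgeR adjusted p = 1.42e-12).

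Histone genes, some other lists and some line-dependent genes did not have the same direction in the 2 comparisons, and other line-dependent genes did. Of 41 epidermal differentiation genes, 21 were higher and 12 lower at 3 days, with a median of 0.825 where it was -0.28 against cGAS KO at 5 days. At 3 days 9 of the 14 histone genes were lower in XRCC4 KO than in WT and 1 was higher, with a median of -0.55. Of all genes 27.8% were lower and 28.7% higher at that time. HIST1H1C was 14.4 and 18.4 CPM against 23.7 and 19.7 CPM (-0.40 ± 0.10, edgeR adjusted p = 0.00143). BIRC3 was higher at 3 days, 292 and 289 CPM against 230 and 220 CPM (0.37 ± 0.08, edgeR adjusted p = 0.00158), unlike most of its list. Of the 29 inflammatory genes, 23 were lower than in WT at 3 days and 4 higher. Their median was -1.75 there, and -0.36 against cGAS KO at 5 days. At 5 days their mean log2 CPM was 4.37 and 4.55 in XRCC4 KO, 4.96 and 5.06 in cGAS KO and 6.38 and 6.50 in irradiated WT. The 2 medians therefore do not measure a change with time. TMPRSS15 was high in XRCC4 KO at 3 days as well, at 305 and 295 CPM against 0 and 0.293 CPM in WT. ZNF329 was at 0 in XRCC4 KO again, with 3.46 and 2.46 CPM in WT. MOCS1, higher than in cGAS KO at 5 days, was lower than in WT at 3 days, at 0.591 and 0.704 CPM against 9.07 and 8.43 CPM (-3.74 ± 0.26, edgeR adjusted p = 7.49e-14). At 5 days XRCC4 KO had 47 counts of MOCS1 and cGAS KO 3, and XRCC4 KO too lay below untreated and irradiated WT. The direction thus differed with the line compared, and against WT it was the same in both experiments. KRT14, level between the edited lines at 5 days, was 5000 and 4970 CPM in XRCC4 KO and 43.5 and 44.8 CPM in WT at 3 days (6.82 ± 0.05, edgeR adjusted p = 1.2e-40). Of the 17 basal markers 8 were higher and 4 lower at 3 days, with a median of 0.09. The cause of the KRT14 difference was not tested.

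**Figure D4:**
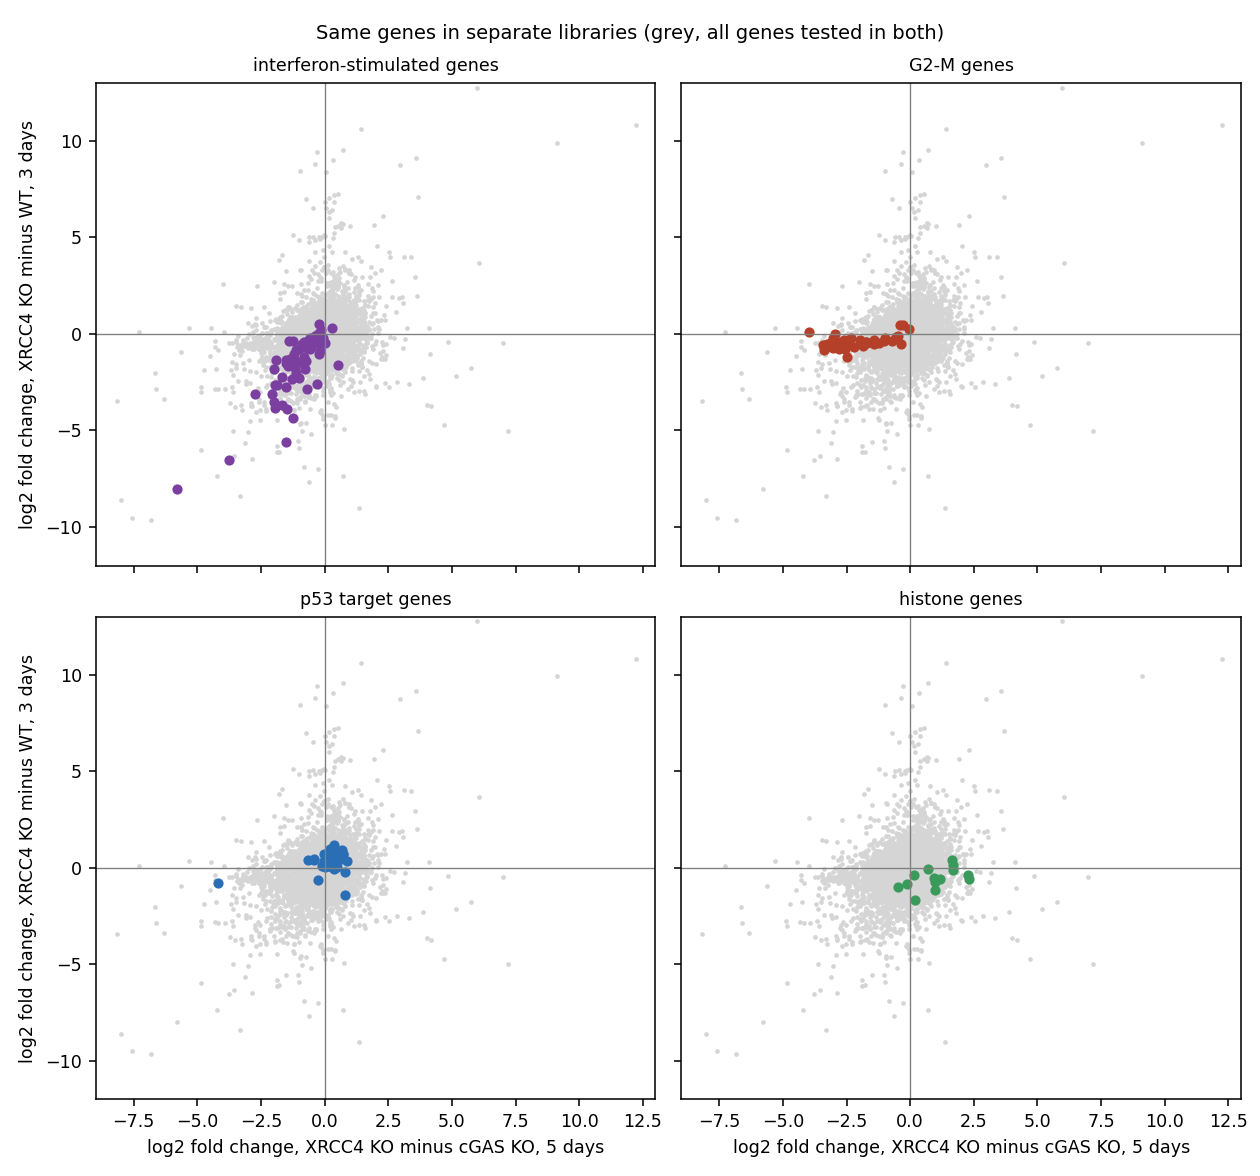
Log2 fold change of XRCC4 KO minus cGAS KO at 5 days (horizontal) and of XRCC4 KO minus WT at 3 days (vertical), in separate libraries; grey points are all genes tested in both and coloured points the members of 1 list per panel. Interferon-stimulated genes lie mostly lower left, G2-M genes reach -3.97 at 5 days with a 3-day median of -0.49, and histone genes lie mostly lower right.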

How the data were processed

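Polyadenylated RNA was sequenced from MCF10A and hTERT RPE-1 cell lines in 32 libraries. The authors deposited a table of estimated counts per gene, not normalised, and a table of FPKM values, scaled by the authors per kilobase and library size. Tools listed in the submitters' processing notes are STAR, Cuffnorm, DESeq2, FastQC and bcl2fastq (no version or role stated), with hg19 as the build; no source used here gives the annotation. Intervals on hg19 are those of the count table and can span several genes; starts count from 0 there and are printed plus 1.

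Estimated counts were rounded to whole numbers. The main comparison fitted the 4 libraries by robust quasi-likelihood in edgeR 4.0.16 (R 4.3.3), with TMM library sizes from the 14 libraries of the experiment, filterByExpr by group and Benjamini-Hochberg adjustment over 13662 of 60332 genes. The 3-day comparison was fitted on the 12 libraries of its experiment. CPM are counts scaled to TMM library sizes, and levels of lists use log2 CPM with a prior count of 2. Values after ± are standard errors, computed from the fold change and F statistic. Common biological coefficients of variation were 0.045 with 4 libraries, 0.187 with 14 and 0.036 at 3 days. Where a group had 1 to 3 counts, a count ratio with an exact conditional (Clopper-Pearson) 95% interval is given; intervals and floors cover counting error only. On simulated counts for the main comparison (13662 genes, 200 changed), the test recovered 76.1% of 1.5-fold, 91% of 2-fold and 100% of 4-fold changes. It made 9 false calls on these counts. The changed genes were drawn only from genes above a minimum mean count, and all genes shared the coefficient of variation of 0.045. Recovery among genes of lower counts or wider spread was not tested. In the sequenced libraries the true changes are unknown, so recovery and false calls there were not tested. Alternatives were limma 3.58.1 on FPKM, DESeq2 1.42.0, other scalings and filters, the 14-library fit, a replicate block and leaving out each library.

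The comparison and the 20 gene lists were chosen with earlier results of these data known. Named genes were the targeted genes, 21 anchors, in each list at most 4 called members a direction, and the 12 largest non-overlapping differences a direction (mean at or above 1 CPM, regular symbol); some are left out for length, and the levels of some list members are not reported. BUB3 was named after its values were seen. Promoters came from a RefSeq table (GRCh38.p14), matched by symbol where it holds 1 start.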

Additional observations from a re-analysis of the deposited data

How the results depend on the processing

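The number of genes called moved from 5080 to 379 in the 14-library fit, 2756 with DESeq2, 1186 on log2(FPKM + 0.1), 1177 on log2(FPKM + 1), where 24.4% were higher, and 3359 to 4179 when 1 library was left out, lowest without cGAS KO replicate 1. At 2-fold or more, 1001 moved to 199, 620 and 420 in the 14-library and both FPKM fits, with 828 to 922 when 1 library was left out. The 2607 genes called in the same direction at both times were 242 with the 14-library fit. Nearness to cGAS KO ran from 72.3 to 77.1% for STING KO, 74 to 78.9% for irradiated WT and 60.9 to 73.3% for untreated WT when 1 library was left out. At 3 days 8092 to 8263 genes were called when 1 library was left out, against 9398. Other scalings and filters kept these counts within 1.5 times.

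The shared replicate numbers did not pair the libraries (correlation of deviations 0.00932, and 0.0231 at 3 days); with a replicate block 4638 genes were called, 960 at 2-fold or more, and 9407 at 3 days. Of 108 named genes tested, 92 kept direction and call in every setting other than the 14-library and FPKM fits, and 27 did so in all. Direction turned only for genes not called. On FPKM with pseudocounts of 0.1 and 1 these were XRCC4 (-0.104 and -0.085), KRT14 (-0.171 and -0.171) and IL1A (-0.0322 and -0.0319). When 1 library was left out, XRCC4 ran from -0.0893 to 0.172, KRT14 from -0.0689 to 0.0933, KRT5 from -0.0644 to 0.0156, IL1B from -0.176 to 0.0706 and TMEM173 from -0.122 to 0.115. The cause was not tested. Without a library, the lone one of its group is assumed to vary like the other pair.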

Other observations

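Other metabolic and cytoskeletal lists held called members in both directions, where 18% of all genes were lower in XRCC4 KO and 19.2% higher. Of 27 hypoxia and glycolysis genes, 10 were lower in XRCC4 KO and 4 higher, with a median of -0.04 (0.02 without cGAS KO replicate 2). On FPKM 6 were lower and none higher, where 899 and 287 of all 13662 genes were. ALDOC, a glycolytic aldolase, was 9.62 and 8.77 CPM against 24.8 and 23.3 CPM (-1.39 ± 0.12, edgeR adjusted p = 8.45e-10), and PKM, pyruvate kinase, was 3280 and 3280 CPM against 2540 and 2390 CPM (0.41 ± 0.06, edgeR adjusted p = 4.15e-06; on FPKM 0.268). Of 24 cholesterol biosynthesis genes, 9 were lower and 6 higher, none by 2-fold; without cGAS KO replicate 1, 5 were lower and 3 higher, and without cGAS KO replicate 2, 8 and 2. HMGCS1, an early enzyme of that pathway, was 180 and 201 CPM against 290 and 295 CPM (-0.62 ± 0.06, edgeR adjusted p = 2.01e-09). Of 23 aryl hydrocarbon receptor and NRF2 targets, 10 were lower and 7 higher, with a median of -0.20. Without cGAS KO replicate 1, 5 were lower and 6 higher, with a median of -0.09, and without cGAS KO replicate 2, 7 were lower and 3 higher. The cystine transporter SLC7A11 was 16.3 and 19.0 CPM against 52.2 and 38.8 CPM (-1.39 ± 0.17, edgeR adjusted p = 0.000547). Actin and YAP targets were 6 higher and 6 lower of 23. ALDOC, PKM, HMGCS1 and SLC7A11 were not called in the 14-library fit (adjusted p = 0.0877, 0.194, 0.594 and 0.319).

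The share of tested genes with a 2-fold difference ran from 4.31% on chromosome 22 to 12.6% on chromosome 15, against 7.33% over all genes, and the median log2 fold change of a chromosome ran from -0.07 (chromosome 13) to 0.06 (X). These are values of 2 lines and have no test.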
